A study of Mus musculus with 24 samples.

Results

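A set of 10 genes that glucocorticoids are known to induce, Nfkbia, Sgk1, Txnip, Fkbp5, Tsc22d3, Sult1a1, Hif3a, Zbtb16, Pdk4 and Errfi1, was followed across 24 mouse brain arrays. They were found by gene symbol among the 19572 array rows that name 1 gene, of 22206 rows in all, and each of the 10 genes had exactly 1 row, so the rule of taking the row with the highest mean chose nothing. The study measured total RNA of 3 brain regions, cerebellum, hippocampus and cerebral cortex, in 4 mice with a liver-specific knockout of glutamine synthetase (KO) and in 4 wild-type (WT) mice. The animal number in the labels ties the 3 arrays of a mouse together, so each group of a region and a genotype holds 4 arrays of 4 mice. Liver was not among the samples, so the arrays do not check the loss of the enzyme there. The Cre driver, strain, age and sex of the mice, and the way and hour of tissue collection, were not stated in the sources used here. The genes were chosen by name with earlier results of these data known, which may include how far they varied between these mice, so a count of members is set beside the share of all genes and is not independent evidence.

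Glucocorticoids, the steroid hormones of the adrenal cortex, cross the cell membrane and bind the glucocorticoid receptor, which moves to the nucleus and switches on target genes by binding a palindromic DNA element. In brain the hormone rises with stress and with the daily cycle, and the same targets respond in neurons, glia and blood vessels. Nfkbia encodes the inhibitor that holds NF-kappaB in the cytoplasm, and Tsc22d3 encodes GILZ, another restraint on inflammatory transcription. Fkbp5 encodes a co-chaperone that lowers the receptor's affinity for the hormone. Sgk1 is a kinase of ion transport, Txnip an arrestin-like protein that binds thioredoxin and limits glucose uptake, and Pdk4 a kinase that shuts pyruvate dehydrogenase. Errfi1 is a feedback inhibitor of the EGF receptor, Hif3a a relative of the hypoxia factors, Zbtb16 a zinc finger repressor and Sult1a1 a phenol sulfotransferase.

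The promoters of the 3 genes that moved together most closely by animal are shown because each holds a different short motif. The windows come from RefSeq on GRCm38.p6 and run from 250 bases before to 50 bases after an annotated start, 5′ to 3′ on the gene's strand. Windows were used for 9 of the 10 genes, 17 in all, and none for Zbtb16. On that build Sgk1 spans chr10:21882184-21999903, Nfkbia chr12:55489409-55492647 and Txnip chr3:96557957-96561857. The Sgk1 window, chr10:21993640-21993939 on the plus strand, is 1 of the 6 used for that gene, and the capitals mark the full glucocorticoid response element, AGAACA and TGTTCT with any 3 bases (NNN) between them.
Sgk1: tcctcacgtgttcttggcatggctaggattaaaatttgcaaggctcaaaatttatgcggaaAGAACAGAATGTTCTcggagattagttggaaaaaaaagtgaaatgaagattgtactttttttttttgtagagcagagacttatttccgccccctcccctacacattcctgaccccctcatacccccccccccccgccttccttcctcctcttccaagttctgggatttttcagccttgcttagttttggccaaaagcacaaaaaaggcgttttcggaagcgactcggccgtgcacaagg
The Nfkbia window is chr12:55492598-55492897 on the minus strand, and the capitals mark 2 matches to the NF-kappaB core GGANNTTCC.
Nfkbia: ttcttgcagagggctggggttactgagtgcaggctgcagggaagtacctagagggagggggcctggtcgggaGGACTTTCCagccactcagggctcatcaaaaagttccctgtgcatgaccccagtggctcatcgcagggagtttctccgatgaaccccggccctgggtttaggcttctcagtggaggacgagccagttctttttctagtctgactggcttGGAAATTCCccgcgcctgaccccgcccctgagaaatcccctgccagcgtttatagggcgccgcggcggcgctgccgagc
The Txnip window is chr3:96557707-96558006 on the plus strand, and the capitals mark 1 match to the forkhead motif GTAAACA.
Txnip: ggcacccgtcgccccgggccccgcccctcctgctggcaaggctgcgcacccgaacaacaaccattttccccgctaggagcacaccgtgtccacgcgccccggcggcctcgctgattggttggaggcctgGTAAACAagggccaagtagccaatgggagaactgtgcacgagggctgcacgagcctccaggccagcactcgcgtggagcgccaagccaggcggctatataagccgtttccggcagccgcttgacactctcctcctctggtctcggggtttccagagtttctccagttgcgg
All motifs were searched on both strands. The full element was found in 3 of 32851 mouse promoter windows (0.00913%), 1 of which is that of Sgk1, where it begins at base 62. Its right arm TGTTCT, which overlaps the full element, was in 5 of the 17 windows, belonging to Sgk1, Tsc22d3 and Sult1a1, and in 19% of all windows. The NF-kappaB core was in 4.26% and the forkhead motif in 3.65% of all windows. A match describes these letters only, and a window without one lacks them only within its 300 bases.

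The values are the authors' values after RMA, an array method that corrects background, equalises the arrays and combines the probes of a gene. Their scale is read here as log2, a base that no label states. They ranged from 3.89 to 19.14 on the 24 arrays, with array medians between 8.72 and 8.82. The cerebellum array of KO 3 stood apart from the others of its region. Its mean over 8 oligodendrocyte markers was 14.27 against 12.16 to 12.80 in the other 7 cerebellum arrays. Over 7 brainstem and spinal cord markers it was 8.66 against 6.98 to 7.59. Over 6 markers of cerebellar granule and Purkinje cells it was 14.55 against 15.75 to 16.40. Cortex markers gave 8.79 against 6.82 to 7.38, and microglia markers 9.55 against 8.48 to 8.76. It also lay above the other 7 in oligodendrocyte precursor, astrocyte, endothelial, mural, neuron and meninges markers. It lay within their range in choroid plexus, blood, olfactory bulb and hippocampus markers. In the cortex, KO 1 and KO 4 averaged 11.32 and 10.70 over 5 olfactory bulb markers, against 6.93 to 7.19 in the other 6 arrays. Each region otherwise carried its own markers: all 6 cerebellar markers were higher in WT cerebellum than in WT cortex at an adjusted p under 0.05, and 3 of 4 hippocampal markers were higher in WT hippocampus than in WT cortex. In bulk tissue, fewer cells of a type and less RNA per cell cannot be told apart.

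The first comparison asks whether the genes varied from mouse to mouse within a genotype. Nfkbia, Sgk1 and Txnip differed between mice of 1 genotype in much the same way in cerebellum, hippocampus and cortex. On the mean of the 3 regions KO 1 and WT 1 were lowest in their genotype for all 3 genes, and KO 3, KO 4, WT 3 and WT 4 lay above the mean of theirs. The highest and lowest mouse of a genotype lay 2.01-fold apart in KO and 2.95-fold in WT for Nfkbia, 4.22-fold in KO and 3.78-fold in WT for Sgk1, and 1.40-fold in KO and 2.25-fold in WT for Txnip. No member differed between KO and WT after adjustment in any region.

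Nfkbia, the NF-kappaB inhibitor, measured 9.24, 9.80, 10.34 and 10.42 in the cerebellum of KO 1 to KO 4, against 9.22, 9.79, 10.34 and 10.81 in WT 1 to WT 4. In the hippocampus the log2 values were 9.19, 9.39, 10.16 and 10.11 in KO 1 to KO 4, against 9.22, 9.66, 10.39 and 10.63 in WT 1 to WT 4. In the cortex they were 9.28, 9.08, 9.63 and 10.21 in KO 1 to KO 4, against 8.91, 9.35, 10.04 and 10.59 in WT 1 to WT 4. KO 1 or KO 2 was lowest and KO 3 or KO 4 highest in all 3 regions, the WT mice kept 1 order in all 3, and the KO and WT ranges overlapped in each region. Each of the 8 mice lay on 1 side of its groups' means in all 3 regions, a pattern that 0.0204% of genes had. Differences between mice of a genotype took 86.16% of the gene's sum of squares, against a median of 16.01% over all genes.

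Sgk1, the kinase whose promoter carries the full element, measured 10.79, 11.36, 13.35 and 12.33 in the cerebellum of KO 1 to KO 4, against 10.96, 11.24, 12.49 and 12.73 in WT 1 to WT 4. In the hippocampus it measured 11.10, 11.39, 12.81 and 12.52 in KO 1 to KO 4, against 10.92, 11.92, 13.26 and 13.17 in WT 1 to WT 4. In the cortex it measured 10.38, 11.60, 12.34 and 11.92 in KO 1 to KO 4, against 11.35, 12.17, 11.55 and 13.09 in WT 1 to WT 4. KO 1 and WT 1 were the lowest of their genotype in each of the 3 regions, and WT 3 was high in cerebellum and hippocampus but below the WT mean in cortex. For Sgk1, 5 of the 8 mice kept 1 sign in all 3 regions. The animal share of the sum of squares was 79.46%.

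Txnip, the thioredoxin-binding protein, measured 12.44, 12.87, 13.37 and 13.16 in the cerebellum of KO 1 to KO 4, against 12.36, 12.85, 13.19 and 13.72 in WT 1 to WT 4. In the hippocampus it measured 13.24, 13.29, 13.39 and 13.22 in KO 1 to KO 4, against 13.03, 13.37, 14.12 and 14.03 in WT 1 to WT 4. In the cortex it measured 12.54, 12.68, 12.93 and 12.69 in KO 1 to KO 4, against 12.43, 12.69, 13.17 and 13.58 in WT 1 to WT 4. The KO mice lay close together in hippocampus, where the KO SD was 0.07 against 0.53 in WT, while the WT mice fanned out in every region. Whether the spread between mice differs by genotype was not tested. The animal share was 54.12%, and region took another 31.93%. Txnip and Errfi1 had 6 mice that kept 1 sign in all 3 regions, and 6 or more were found in 1.04% of genes.

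**Figure D1:**
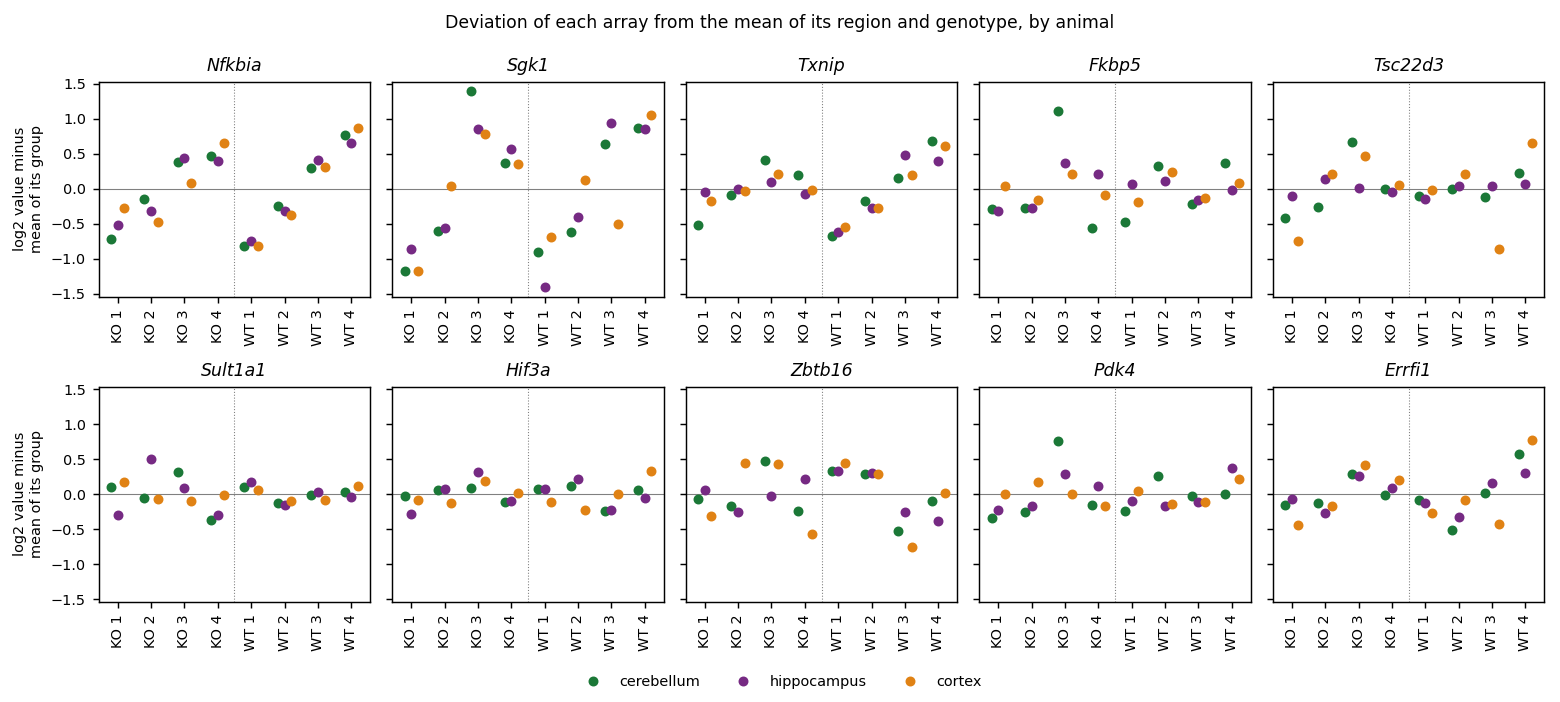
Deviation of each array from the mean of its region and genotype (y axis, log2 units), by mouse (x axis, KO 1 to KO 4 left of WT 1 to WT 4), with 1 point per region. For Nfkbia the 3 points of each mouse lie on 1 side of 0 in all 8 mice; for Zbtb16 WT 1 and WT 2 lie above 0 and WT 3 below it.

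A model with a term for each mouse within its genotype tested this over all genes. limma called 12 of 19572 genes (0.0613%) at an adjusted p under 0.05, and 3 of the 10 members were among them: Nfkbia (F = 36.9, adjusted p = 1.78e-05), Sgk1 (F = 16.8, adjusted p = 0.00439) and Txnip (F = 15.4, adjusted p = 0.00726), which stood at ranks 2, 5 and 6 of all genes. The choice of members may have drawn on these same values, so the ranks describe them. At an unadjusted p under 0.05 there were 7 members, against 5.13% of all genes, and the further 4 were Errfi1 (F = 7.68, adjusted p = 0.185), Zbtb16 (4.65, 0.772), Fkbp5 (4.01, 0.897) and Tsc22d3 (3.43, 0.904). Pdk4 (F = 2.15), Hif3a (1.55) and Sult1a1 (1.35) did not reach that level, and the median F of all genes was 0.985.

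Nfkbia passed in limma when any 1 mouse or any 1 region was left out, with adjusted p-values up to 0.0439. Sgk1 and Txnip did not pass without WT 1 (adjusted p = 0.0525 and 0.572) or without WT 4 (0.112 and 0.269), which are the lowest and highest WT mice. Without the hippocampus both gave 0.229, without the cerebellum 0.814 for Sgk1 and 0.459 for Txnip, and without the cortex Txnip gave 0.466. Without the cerebellum array of KO 3 all 3 passed (adjusted p = 2.42e-05 for Nfkbia and 0.00676 for both others). With the KO arrays alone limma called Sgk1 (adjusted p = 0.0206) but neither Nfkbia (0.46) nor Txnip (0.949), and with the WT arrays alone it called Nfkbia (4.63e-05) and Txnip (0.00376) but not Sgk1 (0.0548).

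Some markers of cell types moved with these genes. Over the 3 regions the mean deviation of the oligodendrocyte markers was -0.17, -0.105, 0.658 and -0.383 in KO 1 to KO 4, and -0.178, -0.134, -0.054 and 0.366 in WT 1 to WT 4. KO 3 and WT 4 were thus the highest of their genotype in these markers, as in Sgk1 and Txnip. KO 4, the highest KO mouse in Nfkbia and also high in Sgk1, was lowest in the oligodendrocyte markers. An oligodendrocyte precursor list had 3 measured markers, Olig1, Olig2 and Sox10. Their mean deviation was -0.141, -0.16, 0.522 and -0.221 in KO 1 to KO 4, and -0.218, -0.0521, 0.11 and 0.159 in WT 1 to WT 4. The WT mice thus stood in the order of Nfkbia. Pdgfra, the 1 other gene of that list, was not measured, so the list does not separate precursors from mature oligodendrocytes. Microglia markers gave -0.0964, -0.0291, 0.247 and -0.121 in KO 1 to KO 4, and -0.0535, -0.0679, 0.0484 and 0.0732 in WT 1 to WT 4, again with WT 1 and WT 2 low and WT 3 and WT 4 high. Mural cell markers gave 0.018, -0.0811, 0.134 and -0.0712 in KO 1 to KO 4, and -0.0547, -0.0682, 0.0584 and 0.0649 in WT 1 to WT 4. KO 3 was thus the highest KO mouse in all 4 of these lists, while KO 4 lay below its group means in each. The mural lead of KO 3 came from cerebellum, where it deviated by 0.335. KO 1 stood above it in cortex (0.103 against -0.0354) and hippocampus (0.139 against 0.103). For microglia markers KO 2 stood above KO 3 in cortex (0.14 against 0.0208). KO 3 was also the highest KO mouse in neuron (0.17), cortex (0.587), hippocampus (0.146) and brainstem (0.339) markers, but in none of the other lists. Its brainstem markers deviated by 0.986 in cerebellum but by -0.0634 in cortex. Its cortex markers deviated by 1.34 in cerebellum, while in cortex KO 2 stood above it (0.726 against 0.417). Endothelial markers lay between -0.158 and 0.169 in all 8 mice. Over the 24 arrays the deviations of the oligodendrocyte markers had a Pearson's r of 0.286 with Nfkbia, 0.675 with Sgk1, 0.498 with Txnip and 0.782 with Tsc22d3, and of 0.23, 0.592, 0.442 and 0.715 without the cerebellum array of KO 3. With the precursor markers r was 0.399 for Nfkbia, 0.666 for Sgk1 and 0.579 for Txnip, and 0.488, 0.675 and 0.701 without that array. These are descriptions, since the 3 arrays of a mouse share the animal. The part of these cell types in the differences between mice was not tested.

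The other 7 members followed the order of mice less closely. KO 3 was the highest KO mouse over the 3 regions in 8 of the 10 genes, against 26.8% of all genes, and KO 1 the lowest in 7, against 25.5%. WT 4 was the highest WT mouse in 7, against 24% of all genes, and WT 1 the lowest in 5, against 22.5%. Without the cerebellum array of KO 3, an alternative chosen after seeing the data, the KO counts were again 8 and 7, against 26.1% and 27.9% of all genes. Errfi1, the EGF receptor inhibitor, deviated by -0.222, -0.189, 0.318 and 0.0932 in KO 1 to KO 4, and by -0.16, -0.305, -0.0844 and 0.55 in WT 1 to WT 4. That places KO 3 and WT 4 on top, as for Sgk1, but WT 2 and not WT 1 at the bottom. Zbtb16, the zinc finger repressor, deviated by -0.106, 0.0119, 0.295 and -0.2 in KO 1 to KO 4, and by 0.369, 0.291, -0.51 and -0.151 in WT 1 to WT 4. Among WT mice the order thus differed from that of Nfkbia, since WT 1 was highest and WT 3 lowest. Cortex markers deviated by 0.29, 0.266, -0.451 and -0.105 in WT 1 to WT 4, the same order. In KO 1 to KO 4 they deviated by -0.392, 0.0483, 0.587 and -0.244, with KO 3 highest as for Zbtb16 but KO 1 and not KO 4 lowest. In its cerebellum array KO 3 deviated by 1.34 in the cortex markers and by 0.476 in Zbtb16. In the cortex KO 2 stood above KO 3 in the markers (0.726 against 0.417) and in Zbtb16 (0.451 against 0.436). In the hippocampus KO 1 stood above KO 3 in both (0.17 against 0.00519, and 0.0626 against -0.0279). The part of cortex tissue in the Zbtb16 values was not tested.

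Tsc22d3, the gene of GILZ, varied most in cortex, with 11.15, 12.11, 12.36 and 11.96 in KO 1 to KO 4, against 12.11, 12.34, 11.26 and 12.77 in WT 1 to WT 4. KO 1 was low there as for Sgk1, and WT 3 was low in cortex for both genes. The oligodendrocyte markers of the same cortex arrays deviated from their group means by -0.436, 0.36, 0.424 and -0.349 in KO 1 to KO 4, and by 0.0393, 0.222, -0.911 and 0.65 in WT 1 to WT 4, so WT 3 was lowest and WT 4 highest in them as well. The part of these cells in the Tsc22d3 and Sgk1 values was not tested. In cerebellum it measured 12.25, 12.41, 13.33 and 12.67 in KO 1 to KO 4, against 12.22, 12.32, 12.21 and 12.55 in WT 1 to WT 4, with KO 3 far above the rest. Pdk4, the pyruvate dehydrogenase kinase, measured 8.77, 8.86, 9.87 and 8.96 in the cerebellum of KO 1 to KO 4, against 8.61, 9.11, 8.83 and 8.85 in WT 1 to WT 4. KO 3 was again the array apart. In hippocampus Pdk4 measured 9.17, 9.22, 9.68 and 9.51 in KO 1 to KO 4, against 9.02, 8.94, 8.996 and 9.49 in WT 1 to WT 4, and KO 3 was the highest there too. Its cortex values lay between 8.85 and 9.19 in KO and between 9.05 and 9.40 in WT. Hif3a in hippocampus and cortex ran from 8.54 to 9.21 in KO and from 8.25 to 8.84 in WT, and Sult1a1 from 8.61 to 9.52 in KO and from 8.55 to 8.88 in WT.

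Similar relations appeared when the deviations of the 24 arrays from their group means are set against each other. These correlations are descriptions, since the 3 arrays of a mouse share the animal and the array of KO 3 enters each of them. Pearson's r was 0.879 between Nfkbia and Txnip, 0.832 between Nfkbia and Sgk1, 0.813 between Sgk1 and Txnip and 0.785 between Sgk1 and Errfi1. It was 0.683 between Tsc22d3 and Errfi1 and 0.667 between Sgk1 and Tsc22d3. Fkbp5 with Pdk4 gave 0.759, which was 0.45 without the cerebellum array of KO 3, where both genes stood high. The other 6 of these pairs moved by less than 0.1 without it. Nfkbia with Zbtb16 gave -0.483, and Nfkbia with Sult1a1 -0.127, or -0.215 without that array. The correlation of 2 regions of a mouse, as limma estimates it per gene, was 0.932 for Nfkbia, 0.84 for Txnip, 0.782 for Sgk1 and 0.671 for Errfi1, between 0.184 and 0.466 for Zbtb16, Fkbp5, Tsc22d3, Pdk4 and Hif3a, and 0.0783 for Sult1a1. The median over all genes was -0.00134.

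**Figure D2:**
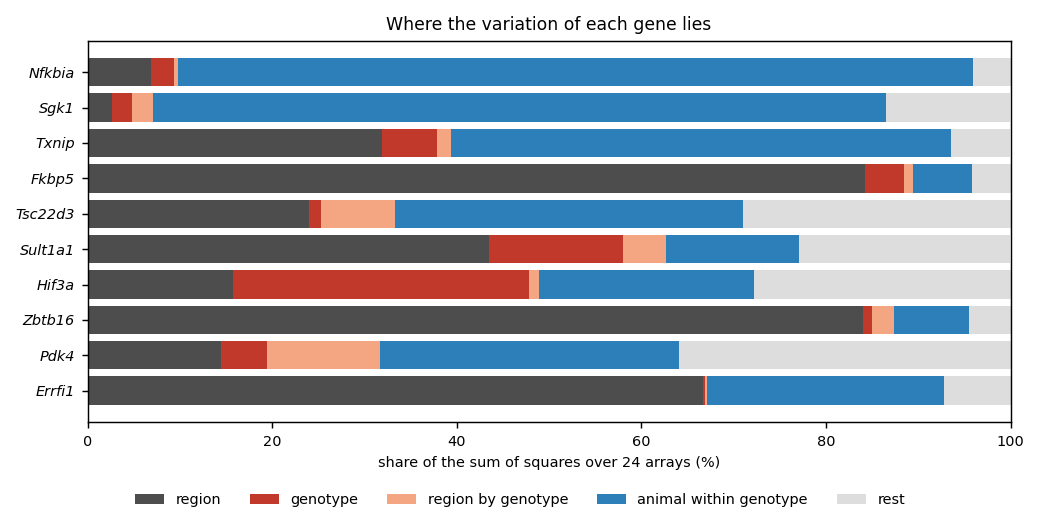
Share of each gene's sum of squares over the 24 arrays (x axis, %) that lies between regions, genotypes, their interaction, mice within a genotype and the rest, with 1 bar per gene. The animal share is 86.16% for Nfkbia and 79.46% for Sgk1, while region holds 84.23% for Fkbp5 and 84.01% for Zbtb16.

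Genes outside the set were ranked by likeness to the members' mean deviation over the 24 arrays, with unnamed transcripts (Gm, Rik and LOC symbols) left out. The leading 5 were Arrdc2 (r = 0.866), Slc2a1 (0.848), Tmcc3 (0.842), Sox8 (0.827) and B3galt5 (0.826). Arrdc2 is an arrestin-like relative of Txnip and Slc2a1 encodes the glucose transporter of brain endothelium and glia. None of the 5 passed the test between mice in limma (adjusted p from 0.0896 for Arrdc2 to 0.904 for Slc2a1 and B3galt5). Arrdc2 deviated by -0.354, -0.456, 0.667 and 0.142 in KO 1 to KO 4, and by -0.44, -0.233, 0.0322 and 0.641 in WT 1 to WT 4, so KO 3 and WT 4 led here too. Without the cerebellum array of KO 3, r of these 5 genes was 0.691 to 0.795. For the members themselves r with their mean was 0.0342 for Sult1a1 and 0.0685 for Zbtb16 without that array, and 0.276 and 0.232 with it, while the other 8 ranged from 0.563 to 0.814 without it. That mean contains the member itself, which raises r, so these values are not comparable with those of the 5 outside genes. With the mean of the other 9 members over all 24 arrays, r was 0.12 for Sult1a1 and 0.0739 for Zbtb16. For the other 8 it ran from 0.384 for Hif3a to 0.761 for Sgk1.

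Among 23 measured genes of 25 others that glucocorticoids induce, 0 passed in limma and 12 had an unadjusted p under 0.05 between mice, against 5.13% of all genes. The median F of this list was 2.63 against 0.985 over all genes. Lists of cell type and region markers reached similar values. The median F was 2.78 for Olig1, Olig2 and Sox10 of the precursor list (2 of 3 with an unadjusted p under 0.05). It was 2.66 for cortex markers (2 of 3), 2.45 for oligodendrocyte markers (3 of 8) and 2.14 for astrocyte markers (4 of 9). In each of these lists 0 passed in limma. The median F of the other marker lists ran from 0.653 to 1.73. The leading genes of the 23 others that glucocorticoids induce were Arrdc3 (F = 9.77, adjusted p = 0.0667), Arrdc2 (9.05, 0.0896), the stress-induced mTOR inhibitor Ddit4 (6.01, 0.46) and the lipid droplet gene Plin4 (4.26, 0.879). Arrdc3 deviated by -0.328, -0.147, 0.425 and 0.0507 in KO 1 to KO 4 and by -0.541, -0.187, 0.203 and 0.526 in WT 1 to WT 4, and Ddit4 by -0.196, -0.193, 0.178 and 0.211 in KO and by -0.465, -0.261, 0.379 and 0.347 in WT. Both shared the split of Nfkbia, with KO 1, KO 2, WT 1 and WT 2 below and KO 3, KO 4, WT 3 and WT 4 above their group means. The clock gene Per1 (F = 2.2) and the transcription factor Klf9 (F = 0.589), picked here after their values were seen as well-known targets, gave adjusted p-values of 0.904 and 0.953.

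Genes of the pathways around the members showed little of this. Of 12 measured genes of the receptor and of hormone handling, 0 passed and 2 had an unadjusted p under 0.05 (median F 1.16), led by the co-chaperone genes Ptges3 (F = 2.8) and Hsp90aa1 (2.79), the mineralocorticoid receptor Nr3c2 (2.56) and the coactivator Ncoa2 (1.95). The receptor gene Nr3c1 itself, named after its value was seen, gave F = 0.503. Of 16 measured NF-kappaB genes, 0 passed adjusted or unadjusted (median F 0.94), and the leading genes were the subunit Rel (F = 2.51), the kinase Ikbkb (1.98), the chemokine Ccl2 (1.73) and the co-activator Bcl3 (1.54). Of 23 measured partners in fuel use and growth control, 0 passed and 1, Slc2a1, had an unadjusted p under 0.05 (F = 3.54), followed by Arnt (2.03), Cpt1a (1.86) and Vegfa (1.8). Of 22 measured paralogs of the members, which include Arrdc3, 0 passed and 1 had an unadjusted p under 0.05.

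**Figure D3:**
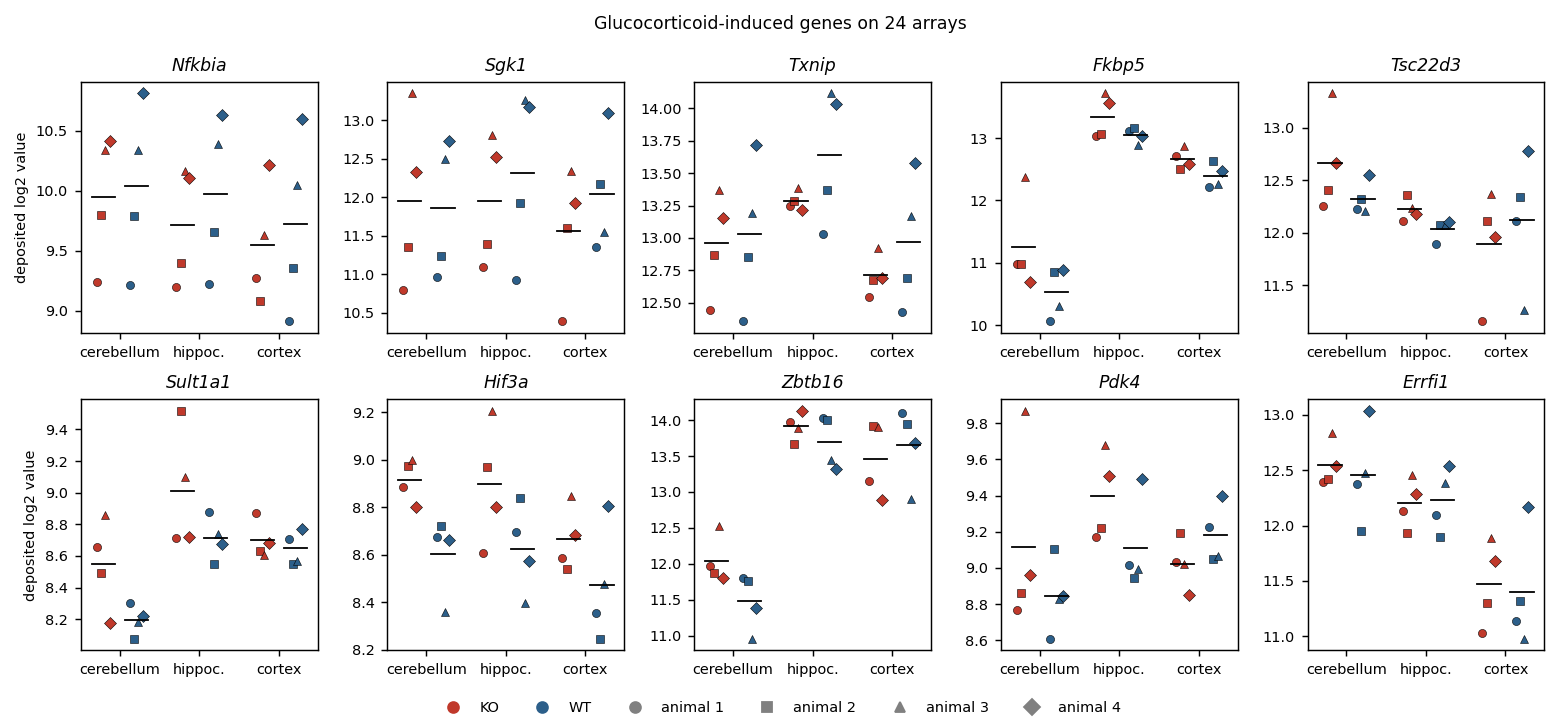
Deposited log2 value (y axis) of the 10 genes on the 24 arrays, by region (x axis) with KO left of WT; the symbol gives the animal number within its genotype and the line the mean of 4 arrays. The KO and WT ranges of Nfkbia, Sgk1 and Txnip overlap in every region, and Fkbp5 and Zbtb16 are lowest in cerebellum.

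The comparison of KO with WT mice asks whether loss of the liver enzyme went with a change of these genes in each brain region. limma called 0 of 10 members and 0 of 19572 genes (0%) in cerebellum, hippocampus or cortex, on the means of the 3 regions per mouse, and for a difference of the KO effect between regions. At an unadjusted p under 0.05 there were 1860 genes in cerebellum, 412 in hippocampus, 1459 in cortex, 1331 on the means per mouse and 973 (4.97%) between regions, where 0 members were among them. On the means per mouse the differences of Nfkbia, Sgk1 and Txnip were -0.18 (SE 0.29), -0.25 (SE 0.42) and -0.23 (SE 0.20), with adjusted p-values from 0.816 to 0.911 in limma.

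In cerebellum 4 members were higher in KO at an unadjusted p under 0.05, against 5.97% of all genes, and 0 were lower, against 3.53%. Fkbp5 measured 10.98, 10.98, 12.38 and 10.70 in KO 1 to KO 4, against 10.06, 10.85, 10.31 and 10.89 in WT 1 to WT 4, a difference of 0.73 (SE 0.25, adjusted p = 0.435 in limma). KO 3 lay far above all others and KO 4 within the WT range. Zbtb16 measured 11.98, 11.88, 12.52 and 11.80 in KO 1 to KO 4, against 11.81, 11.76, 10.96 and 11.39 in WT 1 to WT 4, a difference of 0.57 (SE 0.25, adjusted p = 0.506). Sult1a1 measured 8.66, 8.49, 8.86 and 8.18 in KO 1 to KO 4, against 8.30, 8.07, 8.18 and 8.22 in WT 1 to WT 4, a difference of 0.35 (SE 0.15, adjusted p = 0.478). For both genes 3 of the 4 KO values lay above all WT values, and KO 4 was the lowest KO mouse.

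Hif3a was the only member whose 4 KO cerebellum values all lay above the 4 WT values, as they did in 1.93% of genes. It measured 8.88, 8.97, 8.999 and 8.80 in KO 1 to KO 4, against 8.67, 8.72, 8.36 and 8.66 in WT 1 to WT 4, a difference of 0.31 (SE 0.13, adjusted p = 0.49 in limma). Without the 3 arrays that stood apart, the cerebellum differences were 0.28 (SE 0.15) for Hif3a, 0.36 (SE 0.19) for Fkbp5, 0.41 (SE 0.23) for Zbtb16 and 0.25 (SE 0.15) for Sult1a1, with an adjusted p of 0.998 for each. Those of Tsc22d3 and Pdk4 were 0.34 (SE 0.25) and 0.27 (SE 0.18) with all arrays, and 0.12 (SE 0.21) and 0.02 (SE 0.15) without them. The KO 3 cerebellum array carried the high oligodendrocyte, brainstem, cortex, microglia and other markers given above. The part of those cells and tissues in its Fkbp5 value was not tested.

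In hippocampus 0 members had an unadjusted p under 0.05, against 1.2% of genes higher and 0.904% lower in KO. Tsc22d3 was the only member whose 4 KO values lay above all 4 WT values, as in 1.19% of genes, with 12.11, 12.36, 12.24 and 12.17 in KO 1 to KO 4, against 11.89, 12.07, 12.07 and 12.10 in WT 1 to WT 4. Its difference was 0.19 (SE 0.25, adjusted p = 1 in limma), and its SD in hippocampus was 0.10 in each genotype. The SE and p-value rest on 1 spread shared by all 6 groups, and in cortex the SD was 0.52 in KO and 0.64 in WT. They thus do not measure the hippocampus spread alone. In cortex 0 members passed unadjusted, against 4.12% of genes higher and 3.34% lower, 0 had all KO values above all WT values, against 1.71% of genes, and the differences ran from -0.48 (SE 0.57) for Sgk1 to 0.28 (SE 0.25) for Fkbp5.

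On the means of the 3 regions per mouse, Hif3a averaged 8.83 ± 0.14 in KO and 8.57 ± 0.11 in WT (SD, 4 mice each), a difference of 0.26 (SE 0.084, adjusted p = 0.72 in limma), and all 4 KO means lay above all 4 WT means, as in 1.88% of genes. Fkbp5 averaged 12.42 ± 0.38 in KO and 11.99 ± 0.21 in WT, a difference of 0.43 (SE 0.16, adjusted p = 0.72). Sult1a1 averaged 8.75 ± 0.16 in KO and 8.52 ± 0.10 in WT, a difference of 0.23 (SE 0.087, adjusted p = 0.72). These 3 members had an unadjusted p under 0.05, against 3.82% of genes higher and 2.98% lower in KO, and Hif3a gave 0.27 (SE 0.086), Fkbp5 0.33 (SE 0.11) and Sult1a1 0.20 (SE 0.082) without the cerebellum array of KO 3. Genotype took 32.14% of the sum of squares of Hif3a, against a median of 1.567% over all genes. The group means of Hif3a stood above 44.4% to 50.5% of all genes and those of Sult1a1 above 41.4% to 51.4%. Detection calls were not used, so whether these 2 genes rose above background was not tested. The other lists gave 0 genes passing in any of these comparisons.

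**Figure D4:**
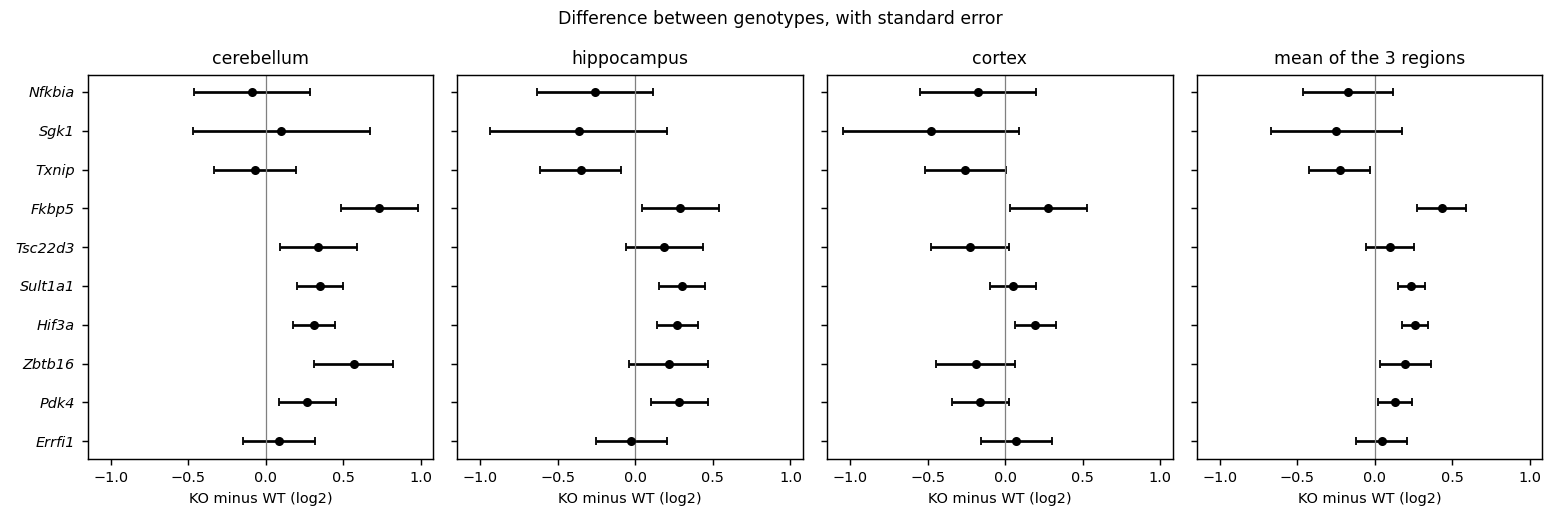
KO minus WT on the log2 scale (x axis) for each of the 10 genes (y axis) in cerebellum, hippocampus, cortex and on the mean of the 3 regions per mouse; points are the estimates and bars 1 standard error. Fkbp5 in cerebellum is the largest at 0.73, and Nfkbia, Sgk1 and Txnip lie between -0.48 and 0.10 in every panel.

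Between regions the members split. Fkbp5 and Zbtb16 were far lower in WT cerebellum than in the other regions, Sult1a1 was slightly lower there, and Errfi1 was lower in cortex than in cerebellum and hippocampus. Fkbp5 measured 10.06, 10.85, 10.31 and 10.89 in the cerebellum of WT 1 to WT 4, 13.12, 13.17, 12.89 and 13.04 in their hippocampus and 12.21, 12.63, 12.26 and 12.47 in their cortex. The 3 regions did not overlap. Cerebellum minus hippocampus was -2.53 (SE 0.25, adjusted p = 7.13e-09 in limma) and cerebellum minus cortex -1.86 (SE 0.25, adjusted p = 1.02e-06).

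Zbtb16 measured 11.81, 11.76, 10.96 and 11.39 in the cerebellum of WT 1 to WT 4, 14.03, 14.00, 13.45 and 13.32 in their hippocampus and 14.10, 13.94, 12.90 and 13.67 in their cortex. Cerebellum lay apart, with differences of -2.22 (SE 0.25, adjusted p = 9.99e-08 in limma) from hippocampus and -2.17 (SE 0.25, adjusted p = 1.36e-07) from cortex, while hippocampus minus cortex was 0.05 (SE 0.25). Sult1a1 differed by -0.52 (SE 0.15, adjusted p = 0.00733) between cerebellum and hippocampus and by -0.45 (SE 0.15, adjusted p = 0.0172) between cerebellum and cortex, and the second difference, -0.41 without the cortex array of WT 4, then did not pass. In KO mice the cerebellum minus cortex difference of Sult1a1 was -0.15 (adjusted p = 0.491), and that of Tsc22d3 was 0.77 in KO (adjusted p = 0.019) and 0.20 in WT (adjusted p = 0.595). Neither gene passed the test of a different KO effect between regions. The KO value of Tsc22d3 includes arrays that stood apart. Its cerebellum array of KO 3 read 13.33, against 12.25 to 12.67 in the other KO mice. Its cortex array of KO 1 read 11.15, against 11.96 to 12.36 in the others. The difference in KO mice was not recomputed without these arrays.

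Errfi1 measured 12.38, 11.95, 12.47 and 13.04 in the cerebellum of WT 1 to WT 4, 12.10, 11.90, 12.38 and 12.53 in their hippocampus and 11.14, 11.32, 10.98 and 12.17 in their cortex. It was higher by 1.06 (SE 0.23, adjusted p = 5.9e-04 in limma) in cerebellum than in cortex and by 0.83 (SE 0.23, adjusted p = 0.0275) in hippocampus than in cortex, with WT 4 the highest mouse in each region. The hippocampus call ended without the cortex array of WT 1, WT 2 or WT 3 or the hippocampus array of WT 3 or WT 4, with adjusted p-values up to 0.104, and in KO mice the difference was 0.73 (adjusted p = 0.0569). These fits held no term per mouse. With such a term and all arrays, the WT difference of 0.83 had an SE of 0.14 (adjusted p = 0.00104 in limma). For scale, 19.1% of all genes were higher and 16.6% lower in cerebellum than in cortex, 4.04% higher and 2.97% lower in hippocampus than in cortex, and 17.5% higher and 17.2% lower in cerebellum than in hippocampus.

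The means of the KO groups had the same order of regions for these 3 genes. Fkbp5 in KO 1 to KO 4 measured 13.03, 13.07, 13.72 and 13.56 in hippocampus and 12.71, 12.51, 12.88 and 12.58 in cortex, both above all 4 KO cerebellum values given above. Zbtb16 in KO 1 to KO 4 measured 13.98, 13.67, 13.89 and 14.13 in hippocampus and 13.15, 13.92, 13.90 and 12.89 in cortex. Its cortex values were lowest in KO 1 and KO 4, the arrays with the high olfactory bulb markers; the part of that tissue in them was not tested. Errfi1 in KO 1 to KO 4 measured 12.39, 12.42, 12.83 and 12.54 in cerebellum, 12.13, 11.93, 12.46 and 12.28 in hippocampus and 11.03, 11.30, 11.88 and 11.68 in cortex. All 4 KO cortex values lay below all others of KO mice.

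Since each mouse gave all 3 regions, the region comparisons were also made within mice. With a term per mouse, Txnip was higher in hippocampus than in cortex by 0.67 (SE 0.12, adjusted p = 0.00195 in limma, 0.132 without the term) and lower in cerebellum than in hippocampus, with a difference of -0.61 (SE 0.12, adjusted p = 6.04e-04, 0.0761 without). Fkbp5 was higher in hippocampus than in cortex by 0.66 (SE 0.19, adjusted p = 0.0396, 0.115 without) and Nfkbia higher in cerebellum than in cortex by 0.31 (SE 0.12, adjusted p = 0.0492, 0.581 without). Without that term, the Fkbp5 difference also passed when the cerebellum array of KO 3 was left out of the fit, and Txnip passed between cerebellum and hippocampus at -0.81 without the hippocampus array of WT 1 and at -0.84 without the cerebellum array of WT 4. Within the mice, Nfkbia measured 9.22 in cerebellum and 8.91 in cortex of WT 1, and 10.81 in cerebellum and 10.59 in cortex of WT 4, and cerebellum lay above cortex in each of the 4 WT mice. All other region calls of the members were the same in both fits, and Sgk1, Tsc22d3, Hif3a and Pdk4 passed in none of the WT fits.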

How the data were processed

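Total RNA of 24 mouse brain samples was measured on arrays, 4 per region and genotype. The deposited table holds 1 value per row and array on a scale taken here as log2, made by the authors with RMA per the submitters' processing notes; no source states the RMA version, the base of the logarithm or a build, and the labels describe both biotin and Cy3 as the label. RMA pulls arrays to a common distribution, so shifts of all genes cannot be seen. Of 22206 rows, 19572 name 1 gene in the platform annotation and were tested.

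Samples were grouped by region and genotype from their titles, and no array was left out of the main tests. limma 3.58.1 (R 4.3.3) fitted 6 group means (18 residual degrees of freedom), with Benjamini-Hochberg adjustment over 19572 rows and a threshold of 0.05 for every adjusted p. Values per mouse were means over 3 regions. A further limma fit held a term per mouse within genotype (6 terms, 12 residual degrees of freedom). The region comparisons were repeated with a term per mouse, because the titles give 1 animal number to 3 regions. The correlation of deviations between 2 regions of a mouse was -0.191 to 0.297 over all genes (median 0.0363, 24 pairs). The fits were also run on simulated data with independent normal noise on each array and no arrays that stood apart. That run does not show how the fits behave with such arrays. Array precision is limited by the number of arrays, and detection calls were not used.

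The members and all gene and marker lists were chosen with earlier results of these data known. All members were named, with the 4 genes of smallest p between mice from each of 4 further lists. Also named were the 5 genes most like the members, unnamed transcripts left out, and those said in the text to be picked later. Alternatives were the filter on low rows, arrays or mice left out, a region left out, 1 region or 1 genotype alone, other scaling between arrays, another eBayes prior and blocks by mouse or number.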

Additional observations from a re-analysis of the deposited data

Results flagged for a closer look

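Dixon's test was run on the 60 groups of 4 arrays (10 genes, 6 groups) and marked 4, where chance marks about 1 in 20. The cerebellum array of KO 3 was high for Fkbp5 at 12.3781, with the other KO cerebellum arrays at 10.70 to 10.98. The hippocampus array of WT 1 was low for Tsc22d3 at 11.8885, with the others at 12.07 to 12.10. The cerebellum array of WT 3 was low for Hif3a at 8.36043, with the others at 8.66 to 8.72. The hippocampus array of WT 4 was high for Pdk4 at 9.48921, with the others at 8.94 to 9.02. None of the 4 falls in Nfkbia, Sgk1 or Txnip.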

How the results depend on the processing

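Of 2600 values recomputed for single members, 2507 kept their direction and their side of the threshold, 20 no longer passed, 9 newly passed, 64 differences that had not passed changed sign, and 0 passing values reversed. The count of members that differed between mice, 3, fell to 1 with the hippocampus or the cerebellum left out and was 1 with the KO arrays alone, a setting chosen after seeing the data; leaving out 1 mouse gave 1 to 3. The matching count over all genes, 12, was 7 without the lowest rows, 22 with all rows, 5, 3 and 4 without cortex, hippocampus and cerebellum, and 3 with the KO arrays alone, and 3 to 14 with 1 mouse left out. These settings use fewer arrays or another number of rows; the cause was not tested further. For hippocampus minus cortex in WT, 1 member passed; there were 2 without the 3 arrays that stood apart, 3 with a term per mouse (replicate block), 0 in KO mice and 0 to 2 with 1 array left out. The count over all genes, 1371, was 2070 without those 3 arrays and 838 to 1795 with 1 array left out. Between KO and WT, 0 members passed under every alternative run. Over all genes the cortex count of 0 became 0 to 55 with 1 array left out, and the count on means per mouse 0 to 4. In the titles, KO and WT mice share only a number. Over all genes the correlation of same-numbered deviations was -0.243 to 0.297 over 12 pairs, above 0.1 in 2. For Nfkbia, Sgk1 and Txnip, however, KO 1, KO 2, WT 1 and WT 2 lay below their group means over the 3 regions. KO 3, KO 4, WT 3 and WT 4 lay above theirs. Whether the number stands for anything that these mice shared was not tested. With that number as a replicate block, 35 genes passed in cerebellum and 1 on the means per mouse, none of them a member. A second row per gene could not be tried, since each member has 1 row.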
